A study of Drosophila melanogaster and Drosophila virilis and Drosophila yakuba with 44 samples.

Results

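The heads and the carcasses of adult female D. melanogaster were compared by 3′-seq, which sequences the polyadenylated ends of transcripts. Of 13458 genes in the count table, 8062 had a level of at least 5 CPM (the count on a scale where all genes of a library sum to 1000000) in either library, and these genes make up the comparison. The head library came from 2 to 5-day-old mated Canton S females, cut at the head so that the ventral nerve cord of the thorax was mostly left out. The female carcass came from flies of the same age range and is the body without the head and the ovaries. It thus holds thorax, legs, wings, gut, abdominal fat body, oenocytes and the ventral nerve cord. Whether the rest of the reproductive tract was kept is not stated in the sources used here. Whole males and whole females, used below for comparison, were 2 to 5-day-old mated flies. The male carcass, ovary and testis came from flies of the same age range, the ovary and testis from Canton S. The strain of the carcass flies and of the whole flies is not given in the sources used here. Each tissue has 1 library, from dissected tissue with no treatment in the labels. There is thus no replicate error and no test: ratios are described, and the 95% intervals given are exact binomial (Clopper-Pearson) intervals that cover counting error only.

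The head of a fly holds the brain, the compound eyes, the ocelli, the antennae and the mouthparts, with a layer of fat body under the cuticle. Photoreceptors respond to light through an opsin, a G protein and a phospholipase C that lead to the opening of TRP channels. Some of these genes, such as those of the opsins, are used by few other cells. The carcass is dominated by flight and leg muscle, by the midgut, which secretes trypsin-like and chymotrypsin-like proteases, and by the fat body, which makes yolk proteins and storage proteins in females. Neurons, glia, muscle, fat body and cuticle are thus found on both sides, whereas eyes are found only in the head and the midgut only in the carcass.

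The head library had 14148906 counts and the female carcass library 6694314. A level of 5 CPM was 71 reads in the head and 34 in the carcass, and 3 reads, the floor used in place of a count of 0, were 0.212 CPM and 0.448 CPM. A ratio written as at least a value is taken against this floor, which is lower than the upper end of the 2-sided 95% interval for a count of 0. Of the genes at this level, 5685 passed it in both libraries, 1605 in the head only and 772 in the carcass only. The 3 genes with the most reads took 18.6% of the carcass reads and 10.1% of the head reads. Genes at low levels were more often at 0 in the female carcass than in the male carcass or the head. Of 1327 genes at 5 to 10 CPM in the male carcass library, 160 had no read in the female carcass, whereas of 1209 genes at 5 to 10 CPM in the female carcass, 8 had none in the male carcass. From the head, 231 of 1189 such genes had no read in the female carcass, and in the opposite direction the number was 21 of 1209. For many of the genes at 0 in the female carcass the male carcass level is therefore given as well, and the part of these zeros in the ratios of single genes was not tested.

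Taken at 4-fold or more, with the lower count set to no less than 3 reads, 1879 genes were higher in the head (23.3% of the 8062) and 713 were higher in the carcass (8.84%), while 5470 lay between. By any amount, 5200 genes were higher in the head (64.5%) and 2862 in the carcass (35.5%). The median log2 ratio of head over carcass was 0.57 over all members, so that a typical gene was already higher in the head on this scale. The medians of gene lists below are read beside it. Counts of list members past 4-fold are read beside the 23.3% for the head and the 8.84% for the carcass. With TMM scaling this median was 0.18, and the counts were 1471 genes higher in the head and 859 higher in the carcass. With the male carcass (15034934 counts) in place of the female carcass, 1035 of 8159 genes were 4-fold or more higher in the head (12.7%) and 850 lower (10.4%), so that the number of genes higher in the head depended on which carcass library was used. The head library is shared by both comparisons. List medians given below with the male carcass keep the members of the female comparison, unless stated otherwise. Counts given with it are of genes at 5 CPM or more in the head or the male carcass. With each lower level set to no less than 5 CPM, 1218 genes were higher in the head and 481 in the carcass. A 4-fold call then needs 20 CPM, so that this setting makes the same calls as a minimum of 20 CPM. Genes with no read in the other library were still called from that level on. Near the limit, cv-d stood at 4.0001-fold and noc at 3.99-fold higher in the head, and eater stood at 4.01-fold and CG18067 at 3.99-fold higher in the carcass.

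**Figure D1:**
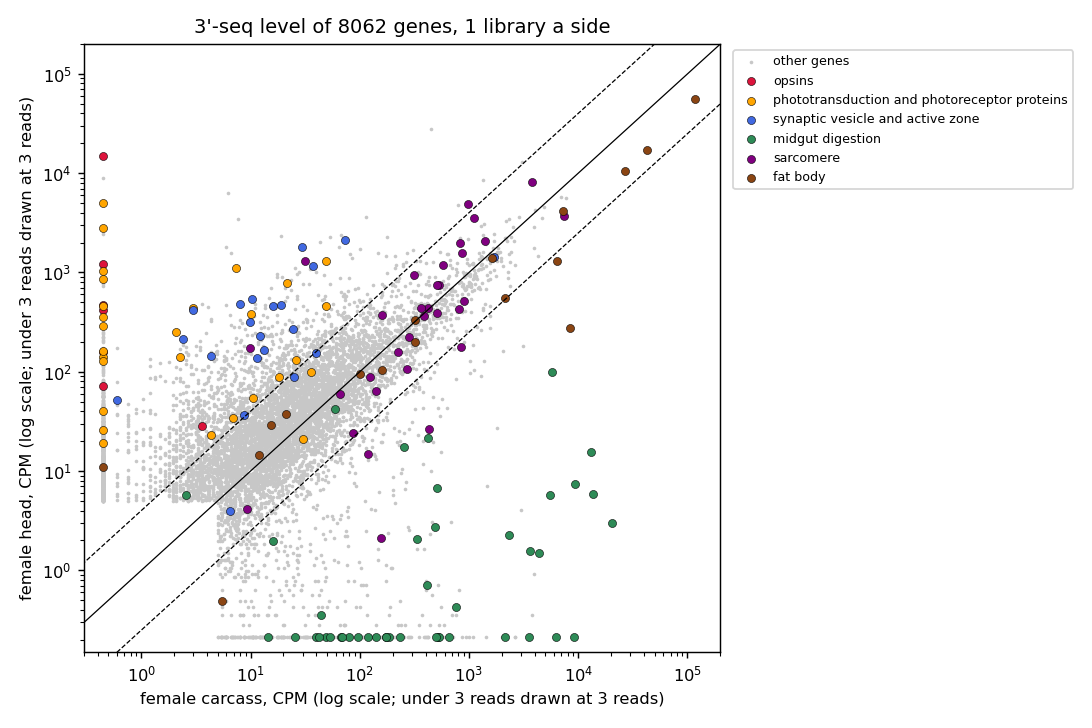
Level of each of the 8062 genes in the female head (y axis) and the female carcass (x axis), in CPM on log axes, with 1 library a side; the solid line marks equal levels and the dashed lines 4-fold differences, and coloured points are members of 6 gene lists. Opsin and phototransduction genes lie at the upper left, many on the line of 0 reads in the carcass, the midgut genes at the lower right, and most sarcomere and fat body genes near the diagonal.

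Many of the genes with the highest ratios on the head side were genes of the eye. Of the 15 highest, 9 belonged to the lists of opsins, phototransduction and lens, and the others were Pdh, rtp, CG11458, CG16885, Cpr100A and CG5172. All 7 opsin genes, which encode the light receptors, were 4-fold or more higher in the head, beside 23.3% of all members. Of the 7, 6 had no read in the female carcass. ninaE, the opsin of the outer photoreceptors R1 to R6, had 212072 reads in the head (14989 CPM) and 0 in the female carcass, and was at least 33446-fold higher. Its locus is 3R:19886255-19888206 (dm6, minus strand), with no other annotated gene across it. Rh4, an ultraviolet opsin of R7 cells, had 1213.5 CPM, Rh3, the other R7 opsin, 467 CPM, and Rh6, the green opsin of R8 cells, 417 CPM, each with no read in the female carcass. Among the low opsins, Rh2 of the ocelli had 159.6 CPM and Rh5, the blue opsin of R8 cells, 72.6 CPM, again with no read in the female carcass. Rh7 was the lowest in the head, at 28.2 CPM against 3.59 CPM (24 reads) in the female carcass, a ratio of 7.87 (95% interval 5.21 to 12.4). The male carcass gave the opsins between 0 and 2.53 CPM, the highest again for Rh7, and ninaE had 1.80 CPM there. Together the opsins took 1.73% of the head reads.

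Genes of the phototransduction cascade followed the opsins, with 26 of 28 members 4-fold or more higher in the head, beside 23.3% of all members. Their median log2 ratio was 6.23, against 0.57 over all members. Arr1 and Arr2, the arrestins that quench activated rhodopsin, had 5047 CPM and 2774 CPM in the head, no read in the female carcass and 0.931 CPM and 0 in the male carcass, at least 11263-fold and at least 6190-fold higher than in the female carcass. ninaC, a myosin with a kinase domain, had 1029.8 CPM and chp, the photoreceptor adhesion protein chaoptin, 866 CPM, both with no read in the female carcass and with 0 and 0.732 CPM in the male carcass. Gbeta76C, the beta subunit of the eye G protein, had 458 CPM in the head and no read in either carcass library. norpA, the phospholipase C of the cascade, had 791 CPM in the head, 21.4 CPM in the female carcass and 40.5 CPM in the male carcass, a ratio of 37.0 over the female carcass (95% interval 31.4 to 44.0). rdgA, a diacylglycerol kinase, stood at 1314 CPM, 48.5 CPM and 152 CPM in the same order. The channel gene trpl had 440.2 CPM against 2.99 CPM, and trp had 160.0 CPM against 0, although the same head RNA gave trp 3137 CPM in RNA-seq. The members short of 4-fold were Galphaq, the G protein of the cascade, at 99.3 CPM in the head and 35.6 CPM in the carcass, and ninaD, a scavenger receptor for carotenoid uptake, at 20.9 CPM and 30.2 CPM. ninaA, the opsin chaperone, was under the minimum, with 1.84 CPM in 3′-seq and 53.0 CPM in RNA-seq. With the male carcass, 22 of 28 members were 4-fold or more higher in the head and 1, ninaD, was 4-fold or more lower, and the median log2 ratio was 5.11.

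Eye genes outside the cascade behaved in more than 1 way. Pdh, a retinol dehydrogenase of the retina, had 2794 CPM in the head, no read in the female carcass and 5.12 CPM in the male carcass, and rtp, retinophilin, had 762 CPM against 0 in both carcass libraries. retinin, a protein of the corneal lens, had 2412 CPM and Cpr72Ec 107 CPM, with no read in either carcass library. Crys, the lens crystallin, had 43.7 CPM in the head and 6.27 CPM in the female carcass. Of 9 genes for the lens and eye pigments, 4 were 4-fold or more higher in the head, beside 23.3% of all members. The pigment transporter genes were not among them: w had 15.5 CPM in the head and 14.5 CPM in the carcass, bw had 9.97 CPM and 7.02 CPM, and st was lower in the head, at 7.77 CPM against 27.6 CPM. Genes of this family are also known from Malpighian tubules, which lie in the carcass.

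**Figure D2:**
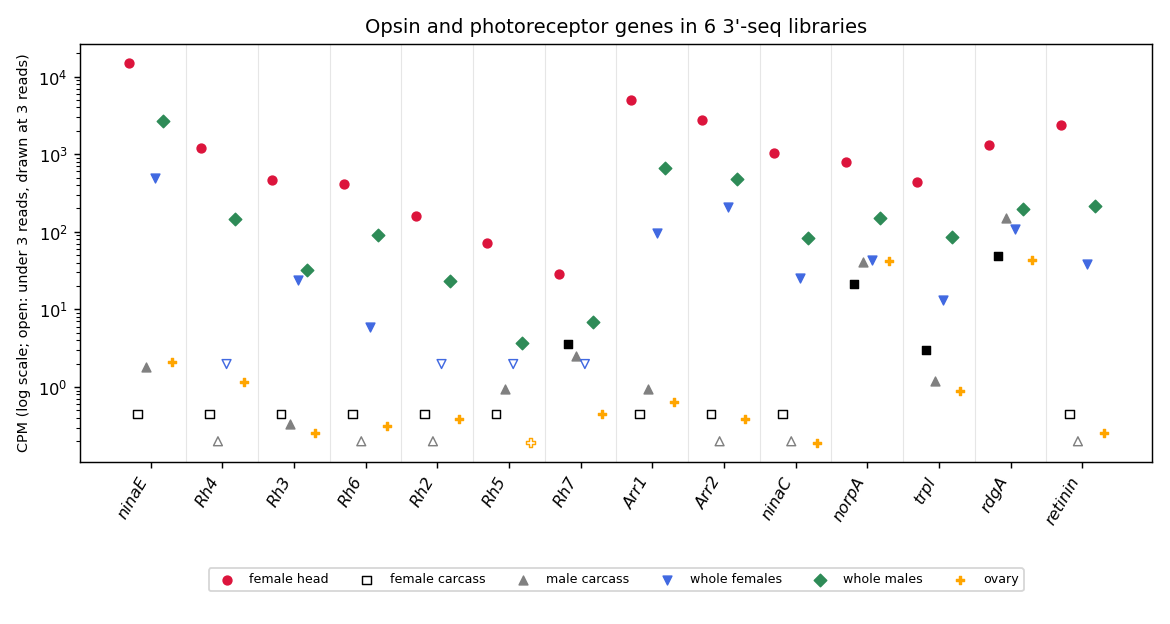
Level in CPM (log axis) of the 7 opsin genes, 6 genes of phototransduction and retinin in 6 3′-seq libraries of 1 sample each; open symbols are under 3 reads and are drawn at the level of 3 reads. The head points lie above all others for each gene, ninaE at 14989 CPM being the highest, and whole males lie between head and male carcass in all 14.

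Whole flies were not used to choose these genes and had lower levels of them. Whole males had reads for all 7 opsins, whereas Rh2, Rh5, Rh7 and trp had no read in whole females and Rh4 had 2. ninaE had 2706 CPM in whole males and 498 CPM in whole females, 18.1% and 3.32% of the head level. For Arr1 the levels were 655 CPM and 96.8 CPM, or 12.98% and 1.92%. The summed opsin level was 17346 CPM in the head, 3009 CPM in whole males, 529 CPM in whole females, 5.72 CPM in the male carcass, 4.65 CPM in the ovary and 3.59 CPM in the female carcass. Whole females also include the ovaries. In such bulk libraries, fewer cells of a type and less RNA per cell cannot be told apart.

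Transcription factors of the head and eye were low but stood on the same side. Of 10 such genes at 5 CPM or more, 8 were 4-fold or more higher in the head, and all 10 were higher, beside 23.3% and 64.5% of all members. oc (orthodenticle), a gene of the anterior head and ocelli, had 113 CPM in the head, 1 read in the female carcass and 1.66 CPM in the male carcass. toy and ey, the Pax6 genes of the fly, had 106 CPM against 2.24 CPM and 14.3 CPM against 0.149 CPM. gl (glass) and Pph13, which act in photoreceptor differentiation, had 13.8 CPM and 14.1 CPM with no read in the female carcass and 0 and 1.13 CPM in the male carcass. so and hbn were short of 4-fold, at 17.5 CPM against 5.08 CPM and 7.49 CPM against 3.14 CPM.

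The Hox genes, which set identity along the body axis, were low in both libraries, and the highest level, of Ubx in the carcass, was 31.1 CPM. Dfd, the Hox gene of the maxillary segment, had 20.2 CPM in the head, no read in the female carcass and 0.333 CPM in the male carcass. Ubx, a gene of the posterior thorax and anterior abdomen, was on the other side, with 5.23 CPM in the head and 31.1 CPM in the female carcass, 5.94-fold higher there (95% interval 4.54 to 7.85), and 51.2 CPM in the male carcass. Scr, of the labial segment and the first thoracic segment, had 24.6 CPM in the head and no read in the female carcass, but 15.2 CPM in the male carcass. abd-A, an abdominal gene, likewise had no read in the female carcass while the head had 2.83 CPM and the male carcass 17.4 CPM. The 0 of the female carcass for Scr and abd-A thus stood apart from the male carcass. The list of 9 genes also holds tsh, a trunk gene that is not a Hox gene, and 6 of its members reached 5 CPM. The median log2 ratio of these 6 turned from 0.89 to -1.03 with the male carcass.

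Genes of neurons were higher in the head without being absent from the carcass, which keeps the ventral nerve cord and peripheral neurons. All 10 neuron markers were higher in the head, 8 of them by 4-fold or more, beside 64.5% and 23.3% of all members. All 10 had reads in the carcass. elav, a pan-neuronal RNA-binding protein, had 239.5 CPM in the head, 15.2 CPM in the female carcass and 38.1 CPM in the male carcass, a ratio of 15.7 over the female carcass (95% interval 12.9 to 19.3). fne, its close relative, had 968 CPM against 26.4 CPM, and Appl, the amyloid precursor-like protein, 906 CPM against 17.6 CPM. nrv3, a sodium pump subunit of neurons, had 3616 CPM against 115 CPM. Rbp9, the remaining gene of the elav family, and Nrg, which is also used outside neurons, were the members short of 4-fold, at 3.78-fold and 3.40-fold. The summed level of the 10 genes was 7553 CPM in the head, 439 CPM in the female carcass and 1078 CPM in the male carcass.

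Synaptic genes had a wider spread. Of 21 genes of synaptic vesicles and active zones, 17 were 4-fold or more higher in the head, beside 23.3% of all members. The median log2 ratio was 4.85, or 3.02 with the male carcass. Syn, the vesicle protein synapsin, had 419.6 CPM in the head, 2.99 CPM in the female carcass and 35.3 CPM in the male carcass. brp (bruchpilot), which builds the active zone, had 211.5 CPM, 2.39 CPM and 15.2 CPM. For both genes the ratio over the male carcass was smaller than that over the female carcass. nSyb and Syt1, the vesicle SNARE and its calcium sensor, were 52.5-fold and 31.4-fold higher in the head than in the female carcass. cpx, complexin, had 1803 CPM against 29.6 CPM, and Sap47 had 2142 CPM against 73.8 CPM. Hsc70-4, a chaperone found in all cells, had 1441 CPM against 1693 CPM and lay on the carcass side, as did Liprin-alpha at 3.96 CPM against 6.42 CPM. Syx1A was listed at 0 in all libraries of the table and has no value here.

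Ion channels and receptors showed the same side in nearly all members. All 14 voltage-gated channel genes were higher in the head, 12 of them by 4-fold or more, beside 64.5% and 23.3% of all members. The median log2 ratio was 3.63, or 2.25 with the male carcass, against which 10 of the 14 were 4-fold or more higher in the head. Sh (Shaker), a potassium channel, had 2039 CPM in the head and 43.2 CPM in the female carcass, para, the sodium channel, 458 CPM and 30.2 CPM, and Ih, the hyperpolarization-activated channel, 758 CPM and 52.9 CPM. KCNQ and sei were short of 4-fold, at 3.17-fold and 2.65-fold. Of 10 nicotinic acetylcholine receptor subunits, 9 were 4-fold or more higher in the head, with a median log2 ratio of 4.85, or 2.86 with the male carcass. nAChRalpha6 had 514.5 CPM against 20.6 CPM and nAChRalpha7 443 CPM against 10.9 CPM, whereas nAChRbeta3 had 20.6 CPM and 19.1 CPM. Genes for the receptor subunits of the neuromuscular junction were low on both sides, and GluRIIA, at 8.62 CPM against 4.48 CPM, was the only 1 of 5 above 5 CPM. GluRIID had no read in the head, either carcass library, either whole-fly library or the ovary, although head RNA-seq gave it 9.18 CPM.

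Among the genes that make, load and clear neurotransmitters, 14 of 16 were 4-fold or more higher in the head and all 16 were higher. The shares of all members were 23.3% and 64.5%. Gad1, which makes GABA, had 472 CPM in the head, 5.98 CPM in the female carcass and 41.7 CPM in the male carcass. VGlut, the vesicular glutamate transporter, had 247 CPM, 3.88 CPM and 12.8 CPM, and ChAT, which makes acetylcholine, 129 CPM, 5.68 CPM and 9.44 CPM. Hdc, which makes histamine, the photoreceptor transmitter, had 60.8 CPM against 2.39 CPM, and CarT, a carcinine transporter of photoreceptors, 18.9 CPM against 0, with 0.466 CPM in the male carcass. ple, tyrosine hydroxylase, which also serves cuticle tanning, had the highest carcass level of the list, 155 CPM against 567 CPM in the head, and was short of 4-fold, as was DAT at 8.83 CPM against 3.88 CPM.

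Neuropeptide genes varied more among themselves. Of 28 at 5 CPM or more, 14 were 4-fold or more higher in the head and none in the carcass, beside 23.3% and 8.84% of all members. The median log2 ratio was 2.13, or 1.22 with the male carcass. Dh44 had 68.4 CPM, Ilp5, an insulin-like peptide of brain cells, 51.8 CPM, Mip 31.5 CPM, Dsk 28.8 CPM and SIFa 13.2 CPM in the head, each with no read in the female carcass. Their male carcass levels were between 0 and 2.66 CPM. In all, 9 of the 14 had no read in the female carcass. Among these, FMRFa had 5.80 CPM in the head but 8.05 CPM in the male carcass. Against the male carcass, 12 of 28 genes were 4-fold or more higher in the head, beside 12.7% of all genes compared with it. The 3 members higher in the carcass were CCHa2, at 134 CPM against 49.0 CPM in the head, Orcokinin, at 39.1 CPM against 16.7 CPM, and CCHa1, at 12.996 CPM against 5.94 CPM, peptides that are also known from gut endocrine cells or fat body. NPF and Dh31, made in both brain and gut, had ratios of 1.07 and 1.86. Akh, a peptide of the corpora cardiaca, had 40.003 CPM in the head and 22.1 CPM in the carcass.

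Clock genes differed less between the libraries. Pdp1, at 1685 CPM against 307 CPM, was the only 1 of 9 that was 4-fold or more higher in the head, and against the male carcass, at 899 CPM, it was not. per had 25.3 CPM and 7.32 CPM, tim 89.8 CPM and 49.6 CPM, vri 184 CPM and 79.2 CPM, and Clk 34.6 CPM and 26.4 CPM in head and female carcass. cry, the blue-light receptor, was near equal at 27.2 CPM and 25.7 CPM, and cyc was lower in the head at 17.2 CPM against 24.6 CPM. The median log2 ratio of the list was 0.86 beside 0.57 over all members, and 0.20 with the male carcass. The hour of dissection is not given in the sources used here.

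Glial genes were on the head side, with a median log2 ratio below the 4.07 of the neuron markers. All 11 were higher in the head, 5 by 4-fold or more, beside 64.5% and 23.3% of all members, and the median log2 ratio was 1.81. repo, the transcription factor that marks most glia, had 34.1 CPM in the head, no read in the female carcass and 7.05 CPM in the male carcass. bdl (borderless) was 37.6-fold and nrv2 25.5-fold higher in the head than in the female carcass. Eaat1, a glutamate transporter, had 436 CPM against 133 CPM, moody, of the blood-brain barrier, 111 CPM against 45.1 CPM, and Gs2, glutamine synthetase, which other tissues also use, 1604 CPM against 1345 CPM.

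**Figure D3:**
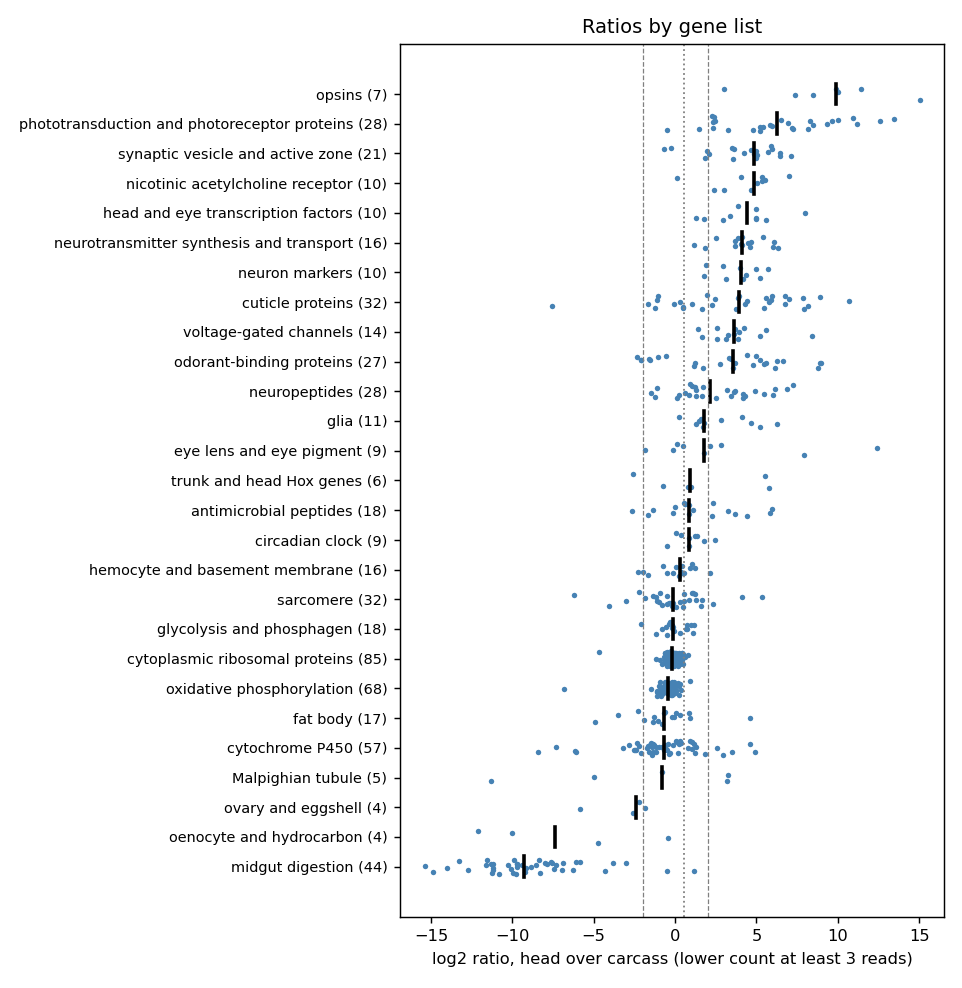
Log2 ratio of head over female carcass for the genes of 27 lists (members at 5 CPM or more in brackets), with each point a gene, black bars the list medians, dashed lines 4-fold differences and the dotted line the median of all members, 0.57. Opsins, at a median of 9.86, and midgut genes, at -9.29, lie at the ends, and sarcomere, glycolysis, oxidative phosphorylation and ribosomal protein genes lie near 0.

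Proteins of the sense organs were mostly on the head side. Of 27 odorant-binding protein genes at 5 CPM or more, 17 were 4-fold or more higher in the head and 3 in the carcass. The shares of all members were 23.3% and 8.84%. Against the male carcass, 16 of 31 were 4-fold or more higher in the head and 9 in the carcass. Obp83a, Obp83b and Obp28a, proteins of the antenna, had 226 CPM, 197 CPM and 211 CPM in the head, with no read in the female carcass and no more than 0.532 CPM in the male carcass. The most abundant were Obp19d and Obp56d, at 2299 CPM and 2278 CPM in the head and at 53.2 CPM and 179 CPM in the female carcass. Obp99a, Obp99b and Obp57b were 4-fold or more higher in the carcass. Obp99a had 261 CPM in the head, 1300.4 CPM in the female carcass and 1.13 CPM in the male carcass, whereas Obp99b had 20.6 CPM, 88.4 CPM and 453 CPM. Of 63 odorant, gustatory and ionotropic receptor genes, only Orco, the odorant co-receptor, at 45.0 CPM, and Ir25a, at 8.20 CPM, reached 5 CPM, both with no read in the female carcass and with 0 and 1.66 CPM in the male carcass.

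Cuticle protein genes were also mostly on the head side. Of 120 in the table, 32 reached 5 CPM, and of these 20 were 4-fold or more higher in the head and 1 in the carcass. The shares of all members were 23.3% and 8.84%. The median log2 ratio of the 32 genes was 3.90. Of the 20, 17 had no read in the female carcass. The median was 2.77 for the same 32 genes with the male carcass, 2.36 with a minimum of 1 CPM and 0.50 with none. At 5 CPM or more in head or male carcass, 18 of 33 genes were 4-fold or more higher in the head and 5 in the carcass. The median of those 33 was 2.47. Cpr100A had 724 CPM, Cpr49Ag 218 CPM and Ccp84Ab 127 CPM in the head, each with no read in the female carcass, where the male carcass had 5.65 CPM for Cpr100A and none for the others. Cpr62Bc had 444 CPM against 4.03 CPM. Cpr49Ab was the exception, with 2.33 CPM in the head, 442 CPM in the female carcass and 222 CPM in the male carcass.

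Several of these genes, and a set of genes known here by CG numbers only, were far higher in head 3′-seq than in whole flies, and many of them were lower in head RNA-seq as well. They were chosen after their values were seen. CG11458, at 3L:20905795-20906331 on the plus strand, had 126831 reads in the head (8964 CPM) and none in either carcass library, at least 20003-fold higher than in the female carcass. CG5172, at X:17221442-17222651 on the plus strand, had 6356 CPM in the head, 6.27 CPM in the female carcass and 1.06 CPM in the male carcass. Yet RNA-seq of the same head RNA gave CG11458 117 CPM and CG5172 79.6 CPM, so that their 3′-seq levels were 76.5 and 79.8 times their RNA-seq levels. That ratio was 26.8 for Ccp84Ab, 3.59 for Cpr100A and 3.40 for CG16885, at 201 CPM and 326 CPM in RNA-seq for the last pair, and below 1 for Cpr97Ea (0.728) and Cpr97Eb (0.369). Among 12 eye genes it was from 0.0510 for trp and 0.259 for ninaC to 1.92 for Rh4, with 1.33 for ninaE, so that the assays also differed for eye genes, with more in RNA-seq for trp, ninaC, Arr2, chp and Rh3. It was 3.65 for blot and 2.78 for Yp3. RNA-seq gives fewer reads to short genes, and the part of length in these ratios was not tested. CG11458 spans 537 nt and CG5172 1210 nt. retinin and rtp span 857 nt and 1224 nt, at ratios of 1.35 and 1.74, and CG31904, at a ratio of 442, spans 4395 nt.

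Whole flies, which include the head, had little of these genes. CG11458 had 20.1 CPM in whole males, 0.225% of its head level, and CG5172 had 0.798 CPM, or 0.0126%, while the 12 eye genes were between 1.12%, for trp, and 21.6%, for Rh6, and the cuticle protein gene Cpr72Ec was at 10.4%. In whole females, a library of 1519235 counts, the groups were not apart: CG11458 was at 0.3598% of its head level, above Rh4 at 0.108% and trp at 0, and retinin and Rh6 were at 1.58% and 1.42%. CG5172 had no read there, and the exact 95% interval for that count reaches 2.43 CPM. CG16885, with 1109 CPM in the head, had no read in the female carcass, 6.65 CPM in the male carcass and 2.09 CPM in whole males, and Cpr100A, with 724 CPM, had 4.39 CPM. Ccp84Ab had 127 CPM in the head, 4.73 CPM in head RNA-seq and no read in whole males or whole females. The cause of these differences was not tested.

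**Figure D4:**
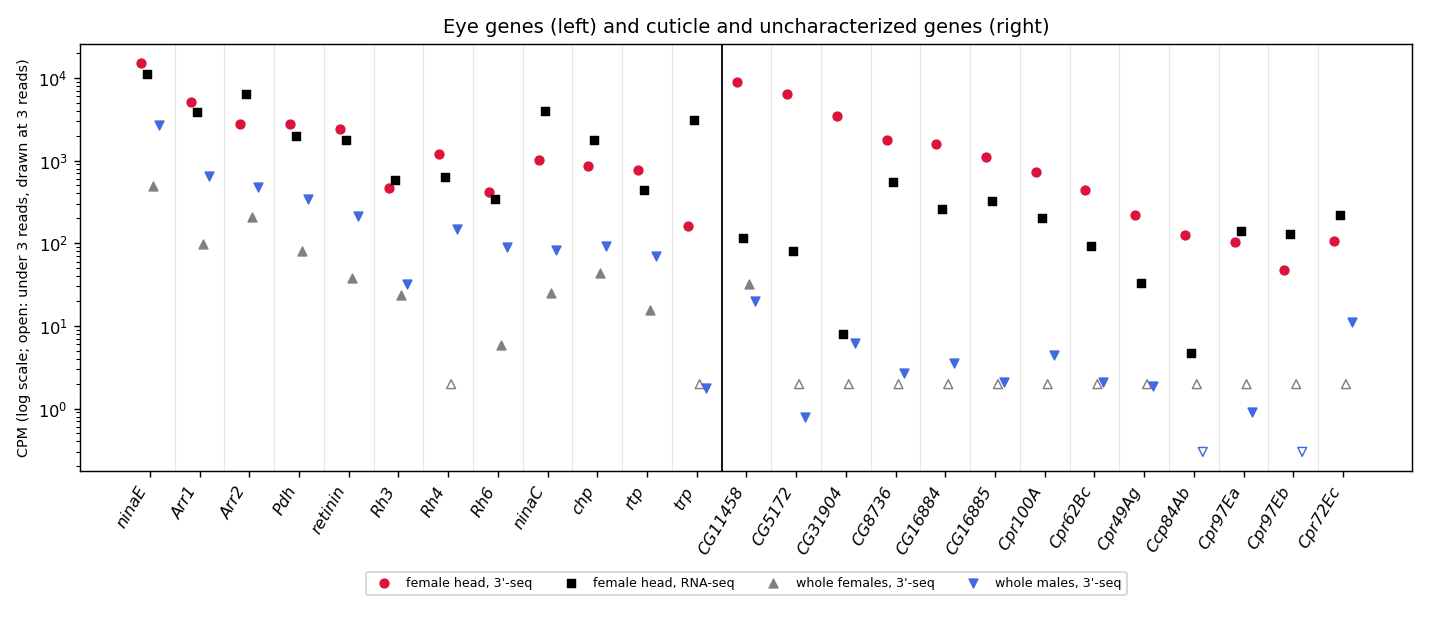
Level in CPM (log axis) of 12 eye genes (left of the line) and 13 cuticle and uncharacterized genes (right) in the head by 3′-seq, the head by RNA-seq, and whole females and whole males by 3′-seq, 1 library each; open symbols are under 3 reads and are drawn at 3 reads. ninaE is at 14989 CPM in head 3′-seq, 11293 CPM in head RNA-seq and 2706 CPM in whole males, trp at 160.0 CPM, 3137 CPM and 1.80 CPM, and CG11458 at 8964 CPM, 117 CPM and 20.1 CPM.

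The gene with the most reads in the head was Yp3, at 55695 CPM, followed by blot, Yp2, the opsin gene ninaE, DIP-alpha, Yp1, CG11458, Cam, Mlc2 and CG5172. blot, a putative neurotransmitter transporter at 3L:17396031-17421514, had 27819 CPM in the head, 452 CPM in the female carcass and 2389 CPM in the male carcass, a ratio of 61.5 over the female carcass (95% interval 59.4 to 63.8). Cam, calmodulin, had 8559 CPM and 1335 CPM. DIP-alpha, a cell surface protein of neurons, had 12942 CPM in the head and 3055 CPM in the carcass, a ratio of 4.24. In the ovary it had 14938 CPM, and 46.2% of its span overlapped other genes, mostly on the opposite strand.

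On the carcass side, digestive enzymes of the midgut led. Of 44 genes of the list at 5 CPM or more, 42 were 4-fold or more higher in the carcass, beside 8.84% of all members. Of the 42, 17 had no read in the head, and the median log2 ratio of the list was -9.29. Jon25Biii, a Jonah serine protease at 2L:4949941-4950767, had 60552 reads in the female carcass (9045 CPM) and none in the head, and was at least 42660-fold higher in the carcass. Its neighbours Jon25Bii and Jon25Bi, at 2L:4952243-4953136 and 2L:4954279-4955144, had 3513 CPM and 6251 CPM in the carcass, with 0 reads and 1 read in the head. Jon99Ciii had 20360.3 CPM in the carcass and 2.97 CPM in the head, and 14453 CPM in the male carcass. Jon65Aiv and yip7, which lie next to each other on 3L, had 13664 CPM and 12954 CPM in the female carcass. Close copies within the Jonah, trypsin and amylase families can share reads, so that the split among copies is uncertain.

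The trypsins and amylases followed the Jonah genes. betaTry had 9333 CPM in the female carcass and 7.42 CPM in the head, and epsilonTry had 3600.4 CPM and 1.55 CPM. Amy-p had 5769 CPM and 100.4 CPM, 57.5-fold (95% interval 54.5 to 60.6), and Amy-d 418 CPM and 21.4 CPM. The members short of 4-fold were Mal-A5, at 42.0 CPM in the head and 59.0 CPM in the carcass, and Mal-B2, which was higher in the head at 5.80 CPM against 2.54 CPM. The summed level of the list was 105899 CPM, or 10.6% of the reads, in the female carcass, 77284 CPM in the male carcass and 246 CPM in the head.

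Other genes among the 15 highest ratios on the carcass side also had 0 to 13 reads in the head. CG12374 had 3747 CPM in the female carcass and 3421 CPM in the male carcass against 5 reads in the head. CG14292 had 2656 CPM, CG5804 2652 CPM, CG8628 1990.2 CPM and CG11911 995 CPM in the female carcass, each with 1 or 2 reads in the head. CG10911 and CG17571 had 1094 CPM and 865 CPM with none in the head. LManVI, a lysosomal alpha-mannosidase gene, had 1439 CPM against 1 read. Pebp1 had 3955 CPM against 0.919 CPM, a ratio of 4304 (95% interval 2517 to 8084). All were detected in the male carcass, between 419 CPM for CG11911 and 3421 CPM for CG12374.

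Fad2 (desatF) differed from the other genes of this set in its absence from males. It encodes the desaturase of female pheromone hydrocarbons, made in oenocytes, and had 6275 reads (937 CPM) in the female carcass, none in the head and 3 reads (0.200 CPM) in the male carcass. Whole females had 232 CPM and whole males none. eloF, the elongase of the same pathway, had 217 CPM in the female carcass, none in the head and 15.3 CPM in the male carcass. FASN2, an oenocyte fatty acid synthase, had 57.5 CPM against 2.12 CPM in the head, and Cpr, the P450 reductase, 105 CPM against 76.0 CPM. Uro, the urate oxidase of Malpighian tubules, had 546 CPM in the female carcass, 271 CPM in the male carcass and none in the head, and ZnT35C, a zinc transporter of the tubule, had 44.2 CPM against 1.41 CPM. Drip and Dh44-R2, the other tubule genes past 4-fold, were higher in the head, at 60.2 CPM against 6.72 CPM and 18.2 CPM against 1.94 CPM, and both had more in the male carcass, 29.8 CPM and 17.8 CPM.

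Fat body genes were high on both sides. Yp1, Yp2 and Yp3, the yolk proteins, were the 3 genes with the most reads in the carcass, at 27014 CPM, 42879 CPM and 116129 CPM, and they were high in the head as well, at 10556 CPM, 17109 CPM and 55695 CPM. They were 2.56-fold, 2.51-fold and 2.09-fold higher in the carcass, and the 95% interval for Yp1, the lowest of them in the head with 149360 reads, was 2.54 to 2.58. In the male carcass the same genes had 4.26 CPM, 8.58 CPM and 33.3 CPM. Lsp2, a larval serum protein also made by adult fat body, was far lower in the head, at 279 CPM against 8315 CPM, and fit, a satiety peptide of the female fat body, had 1305 CPM against 6347 CPM. Fbp1 had 0.495 CPM and 5.53 CPM.

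Other fat body genes were near equal in head and carcass. fon, a clotting protein, had 333 CPM and 318 CPM, Apoltp, a lipid transfer particle protein, 95.7 CPM and 101 CPM, FASN1, the fatty acid synthase, 1404 CPM and 1633 CPM, and apolpp, the apolipophorin, 4170 CPM and 7257 CPM. to (takeout), which is known from head fat body and antennae, was the only member 4-fold or more higher in the head, at 10.9 CPM against no read in either carcass library. Of 17 members, 3 were 4-fold or more higher in the carcass and the median log2 ratio was -0.69. With the male carcass the median of the same 17 genes turned to 0.56. Of the 16 genes at 5 CPM or more in head or male carcass, 5 were 4-fold or more higher in the head and 1 in the carcass. The median of those 16 was 0.50. The 17 genes took 9.19% of the head reads and 21.3% of the carcass reads.

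**Figure D5:**
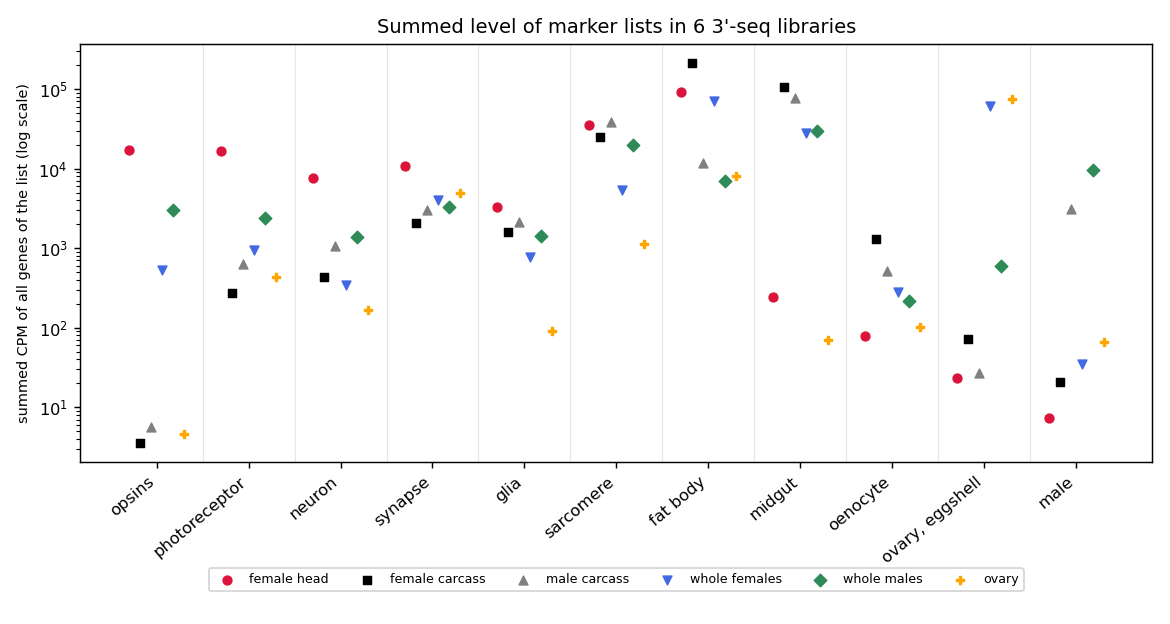
Summed CPM (log axis) of all genes of 11 marker lists in 6 3′-seq libraries of 1 sample each. Opsins are at 17346 CPM in the head and 3.59 CPM in the female carcass, midgut genes at 246 CPM and 105899 CPM, sarcomere genes at 35005 CPM and 24669 CPM, and the ovary and eggshell genes are at 71.3 CPM in the female carcass against 74268 CPM in the ovary.

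Muscle genes as a group did not separate the head from the carcass, although single isoforms did. Of 32 sarcomere genes, 25 were within 4-fold, beside 5470 of all 8062 members. The median log2 ratio was -0.13, below the 0.57 of all members. Mhc, the muscle myosin heavy chain, had 1994 CPM in the head and 823 CPM in the female carcass, Mlc2, a myosin light chain, 8115 CPM and 3790 CPM, and sls, the titin-like gene, 442 CPM and 364 CPM. In the male carcass Mhc had 1814 CPM and Mlc2 6526 CPM, closer to the head, whereas sls had 959 CPM and was further from it. With the male carcass the median of the list was -0.75. Past 4-fold on the head side were TpnC25D, a troponin C, at 1314 CPM against 31.8 CPM, tn (thin) at 173 CPM against 9.86 CPM, and Act57B, a muscle actin, at 4947 CPM against 968 CPM. On the carcass side were TpnC4 and fln (flightin), proteins of the flight muscle, at 155 CPM against 2.12 CPM and 430.4 CPM against 26.3 CPM, TpnC47D at 118 CPM against 14.8 CPM, and Act79B, an actin of leg and thoracic muscle, at 848 CPM against 180 CPM. Act88F, the flight muscle actin, had 106 CPM in the head and 269 CPM in the female carcass, 2.54-fold higher in the carcass, and 616 CPM in the male carcass.

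Genes of general metabolism and translation varied little. Of 18 genes of glycolysis and phosphagen metabolism, 17 were within 4-fold, beside 5470 of all 8062 members. The exception was ImpL3, lactate dehydrogenase, at 9.40 CPM in the head and 39.9 CPM in the carcass. Of 68 genes of oxidative phosphorylation, 67 were within 4-fold, 57 of the 68 were lower in the head (35.5% of all members were), and the median log2 ratio was -0.42. ND-B8 was the exception, with 4 reads in the head and 213 in the female carcass. Of 85 cytoplasmic ribosomal protein genes, 84 were within 4-fold, with a median of -0.18 and with 7.67% of the head reads and 8.46% of the carcass reads. The exception was RpS5b, a germline paralog, with 3 reads (0.212 CPM) in the head, 5.53 CPM in the female carcass and 1455 CPM in the ovary. Relative to the median of all members, the glycolysis, oxidative phosphorylation and ribosomal protein lists were lower in the head, with differences of -0.72, -0.98 and -0.74 on the log2 scale.

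The dissection was checked against markers of the tissues that were taken away. Among 20 ovary and eggshell genes, 4 reached 5 CPM, all in the carcass, and the summed level was 71.3 CPM in the female carcass, 23.2 CPM in the head and 74268 CPM in the ovary. osk, a maternal gene, was the highest of them at 24.2 CPM in the female carcass against 1196 CPM in the ovary, and vas had no read. The 13 genes of the male list had 20.6 CPM in all in the female carcass and 3098 CPM in the male carcass, with most seminal fluid genes at 0 in both female libraries. Send1, a protease of the spermatheca, had no read in the female carcass although whole females had 74.4 CPM, and Send2 had none against 10.5 CPM. Hr39 and lz, the other genes of the spermatheca list, did have reads in the female carcass, between 2.09 CPM and 14.8 CPM. Both were higher in the head. The labels do not say what was done with the spermathecae.

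Beyond the gene lists, the genes on either side differed in features that the ratio did not use. Genes 4-fold or more higher in the head spanned a median of 6303 nt in the annotation (1870 genes with a position), those higher in the carcass 1656 nt (710 genes), and all members 3168 nt (8013 genes). Of the genes higher in the carcass, 67.3% were under 1 CPM in the ovary, against 32.0% of those higher in the head and 19.8% of all members. In embryos of the 18-24 h library, the median level was 15.9 CPM for genes higher in the head, 17.5 CPM for genes higher in the carcass and 24.3 CPM for all.

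Whole males and the male carcass were not used to sort the genes and give a further view of them. The genes were still chosen and sorted by the female head and female carcass libraries. Among genes under 1 CPM in the testis, the level in whole males was above that in the male carcass for 285 of 444 genes higher in the head (64.2%), for 31 of 363 genes higher in the carcass (8.54%) and for 361 of 1101 of all members (32.8%). The median log2 ratio of whole males over male carcass, with 0.5 CPM added to both, was 0.36, -1.09 and -0.51 in the same order. The genes on the head side of the female comparison were thus above the male carcass in whole males at a higher share than members at large, and those on the carcass side at a lower share.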

How the data were processed

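The authors made the 3′-seq libraries from 2 μg of total RNA, sequenced them as single reads, and assigned reads to FlyBase gene models extended at their 3′ ends with featureCounts. They deposited raw counts per gene, with 23 D. melanogaster 3′-seq libraries in 1 table and 3 RNA-seq libraries in another, on dm6. The submitters' processing notes name Trimmomatic 0.36 and HISAT2. Strand and multi-mapping options for counting are not given in the sources used here. No fold changes of the authors were used.

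Counts were divided by the column total and multiplied by 1000000 to give CPM. Genes at 5 CPM or more in head or female carcass were kept, and the lower count of a ratio was set to no less than 3 reads. A gene was counted as higher at a ratio of 4 or more. Intervals are exact binomial at 95%, from scipy 1.17.1 in Python 3.11.15. Columns without a sample numbered 0. Genes named are the 15 with the highest ratio on each side at 50 CPM or more, the 10 with the most reads in each library, and members of 31 gene lists. The members and lists were chosen with earlier results of these data known. Genes named outside this rule, such as CG31904, were chosen after their values were seen. Coordinates come from the Ensembl 115 annotation of dm6, which placed 99.5% of the genes in the table. Reads of overlapping genes could not be told apart. Alternatives, listed in the closing section, used edgeR 4.0.16 and DESeq2 1.42.0 in R 4.3.3 for scale factors only. The ratio step was tested on simulated counts. The D. yakuba and D. virilis tables were not used here. Head and carcass have 1 library each, so p-values were not computed.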

Additional observations from a re-analysis of the deposited data

How the results depend on the processing

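The counts of members (8062), of genes higher in the head (1879) and of genes higher in the carcass (713) were recomputed under 11 planned and 3 added alternatives, the latter chosen after seeing the data. TMM scaling, DESeq2 size factors, a total without the 20 top genes of each library, a minimum of 1 CPM or none, a pseudocount of 1 CPM, thinning to 6694314 reads and a total without the yolk genes kept each count within 1.5 times. A minimum of 20 CPM gave 5332 members and 1218 genes higher in the head. It left no gene of the neuromuscular receptor and male lists, which then have no median. The male carcass gave 1035 genes higher in the head. A fold of 2 gave 3236 and 1243 genes, and a fold of 8 gave 1229 genes higher in the head. With the lower level at no less than 5 CPM, 1218 genes were again higher in the head, since this setting makes the same calls as the minimum of 20 CPM. Without genes that share bases with another gene, 4227 members, 950 genes higher in the head and 451 higher in the carcass were left, by construction. Of the calls, 72.5% were in the head, against 63.1% with TMM, 62.7% with DESeq2 and 54.9% with the male carcass. DESeq2 factors moved the median log2 ratio of all members from 0.57 to 0.16. With the male carcass, 22 of 31 list medians, over the members of the female comparison, left the range taken as unchanged, and 4 changed sign. Ovary and eggshell turned from -2.41 to 0.22 and fat body from -0.69 to 0.56. The Hox list turned from 0.89 to -1.03 and neuromuscular receptors from 0.94 to -0.28. Over genes at 5 CPM or more in head or male carcass, ovary and eggshell kept 1 gene, at -3.93, with no change of sign. The medians there were 0.50 for fat body, -1.20 for the Hox list and -0.28 for neuromuscular receptors. The cause was not tested. The Malpighian tubule median turned from -0.81 to 0.83 with a minimum of 1 CPM and to 0.34 with none, the neuromuscular receptor median to -0.17 with 1 CPM, and the hemocyte median from 0.31 to -0.07 with TMM and -0.09 with DESeq2. No paired analysis was possible because each group has 1 library, and no library could be left out for the same reason. Of the genes higher in the head, 581 had no read in the carcass, and thinning to the same total again gave 1879 genes. The cause of these zeros was not tested. At this depth, levels under 0.448 CPM in the carcass rest on fewer than 3 reads, and 1 read is 0.149 CPM.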

Other observations

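Immune and detoxification genes were found on both sides. Of 18 antimicrobial peptide genes, 7 were 4-fold or more higher in the head and 1 in the carcass, beside 23.3% and 8.84% of all members. AttA had 377 CPM in the head, 17.3 CPM in the female carcass and 14.6 CPM in the male carcass, IM2 had 1264 CPM, 267 CPM and 243 CPM, and CecB had 27.9 CPM against 1 read and none. Drs, the antifungal drosomycin, was 3.18-fold lower in the head, at 418 CPM against 1332 CPM, and AttD, at 1.70 CPM and 10.8 CPM, was the gene 4-fold or more higher in the carcass. Several of these genes were much lower in whole flies than in both dissected female libraries. AttA had 6.58 CPM in whole males and no read in whole females, and DptA, at 135.5 CPM in the head and 89.03 CPM in the female carcass, had 9.28 CPM and no read.

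Of 57 cytochrome P450 genes, 12 were 4-fold or more higher in the carcass and 5 in the head, beside 8.84% and 23.3% of all members, with a median log2 ratio of -0.70. Cyp6w1 had 274 CPM in the head and 1545 CPM in the carcass, and Cyp4ad1 1 read against 73.2 CPM. Cyp313a1 had 199 CPM in the head and 8.07 CPM in the female carcass, but 207 CPM in the male carcass, so that its place among the head genes held for the female carcass library alone. Of 16 genes of hemocytes and basement membrane, 13 were within 4-fold, beside 5470 of all 8062 members. trol, the perlecan of basement membranes, had 734 CPM against 165 CPM, and PPO1, a prophenoloxidase of crystal cells, 22.1 CPM against 105 CPM.

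Some genes outside the lists, chosen after their values were seen, were also far apart. CG31904 had 3482 CPM in head 3′-seq and 7.88 CPM in head RNA-seq, with 7.62 CPM in the female carcass and 6.28 CPM in whole males. Nplp3, a neuropeptide-like precursor, had 2339 CPM in the head, 1782 CPM in head RNA-seq, 19.1 CPM in the female carcass and 37.6 CPM in whole males. On the carcass side, PGRP-SC2, a peptidoglycan amidase of the gut, had 1447 CPM against 6.997 CPM in the head, and Mur18B had 681 CPM against 0. Npc2e, of a family of sterol-binding proteins, had 370 CPM in the female carcass, 10.4 CPM in the male carcass and 5 reads in the head.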
